A study of Mus musculus with 32 samples.

Results

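The genes described here are 10 of the 38740 gene symbols in an expression table of mouse forebrain: the cyclooxygenases Ptgs1 and Ptgs2, the prostaglandin D synthases Ptgds and Hpgds, the prostaglandin E synthases Ptges, Ptges2 and Ptges3, the receptors Ptgdr and Ptger4, and the breakdown enzyme Hpgd. They were taken from the table by symbol, and all 10 were there. RNA was measured by sequencing in 28 libraries of 1 cell each (cells 1 to 28) and 4 libraries of 10 cells each (pools 1 to 4) from the subventricular zone at postnatal day 21. The labels name no animal, strain, sex, sort or treatment, and every library shares the tissue and the age. The series' title places the work in a search for signals that activate dormant neural stem cells.

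Prostaglandins are short-lived lipid signals made from arachidonic acid, which phospholipases and other lipases release from membrane lipids. The cyclooxygenases turn it into a common precursor, terminal synthases turn the precursor into individual prostaglandins, and these act on cell surface receptors before Hpgd, 15-hydroxyprostaglandin dehydrogenase, inactivates them. In brain, Ptgds, the lipocalin-type synthase, is known as an abundant product of oligodendrocytes, choroid plexus and meninges. Hpgds, the hematopoietic-type synthase, is known from microglia.

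Values are FPKM, fragments scaled to transcript length in kilobases and to 1000000 mapped fragments, so levels can be compared between genes. A gene was called found in a library at FPKM of at least 1. Cells were described by the marker list with the highest mean log2(FPKM + 1). Endothelial markers led in 8 cells, neuroblast markers in 7, microglia markers in 4, oligodendrocyte markers in 3, astrocyte and ependymal markers in 2 each, and choroid plexus and neural stem cell markers in 1 each. Cell 10, led by neural stem cell markers at a mean of 2.89, had ependymal markers at 2.83, and cell 3, led by endothelial markers, also held 11 of 14 microglia markers. Cells 1 to 17 held 3062 to 10169 found genes, cells 18 to 28 held 2107 to 5056, and the pools held 10478 to 12870. Cells 18 to 28 stood apart in a further way. In 2 sets, cells 18 to 22 and cells 23 to 28, genes dominated by 1 cell recurred at a low level in the others, with 98.7% and 97.6% of the other values above 0, against 15.1% in cells 1 to 17. An alternative therefore put at 0 all values that were under 2% of a gene's highest value in the set, and another left these cells out. All microglia-led and neuroblast-led cells are among cells 18 to 28, so these classes and the sets cannot be told apart. The labels do not say whether libraries came from separate animals, and no test between cells or between cells and pools was made.

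The prostaglandin E synthases Ptges, Ptges2 and Ptges3 were found in 2, 2 and 16 cells, and the 250 bases before their RefSeq start sites (build GRCm38.p6) are shown to set their promoters side by side. The stretches are chr2:30903298-30903547 on the minus strand for Ptges, chr2:32395640-32395889 on the plus strand for Ptges2, and chr10:128058732-128058981 on the plus strand for Ptges3. Capitals mark the GC-box motif GGGCGG on either strand.

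Ptges: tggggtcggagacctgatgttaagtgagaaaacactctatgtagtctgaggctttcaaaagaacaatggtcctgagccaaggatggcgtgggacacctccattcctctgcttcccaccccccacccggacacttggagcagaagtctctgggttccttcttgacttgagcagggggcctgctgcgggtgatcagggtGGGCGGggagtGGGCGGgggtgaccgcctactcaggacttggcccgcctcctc
Ptges2: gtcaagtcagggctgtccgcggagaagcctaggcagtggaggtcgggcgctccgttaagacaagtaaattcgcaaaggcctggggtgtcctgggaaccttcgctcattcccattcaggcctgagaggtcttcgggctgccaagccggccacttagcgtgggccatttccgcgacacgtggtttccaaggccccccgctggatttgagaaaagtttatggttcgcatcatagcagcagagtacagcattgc
Ptges3: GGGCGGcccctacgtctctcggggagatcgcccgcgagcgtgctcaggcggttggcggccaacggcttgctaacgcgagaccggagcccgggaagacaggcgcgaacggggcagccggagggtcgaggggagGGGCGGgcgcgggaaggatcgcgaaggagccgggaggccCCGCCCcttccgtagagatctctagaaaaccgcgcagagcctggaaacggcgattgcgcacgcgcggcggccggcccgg

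The Ptges stretch held 2 matches to GGGCGG, the Ptges2 stretch 0 and the Ptges3 stretch 3, and 33.0% of 32536 promoter stretches of the same length held at least 1. Neither the TATA box (TATAAA) nor the CCAAT box nor the AP-1 motif TGACTCA, also searched on both strands with overlaps counted, had a match in these 3 stretches, against 12.3%, 33.8% and 4.45% of the 32536 stretches. The Ptges3 stretch held 38 CpG dinucleotides, more than 98.1% of the 32536 stretches, of which the median had 6. The Ptges stretch held 8 and the Ptges2 stretch 15. Of the Ptges3 stretch, 28 bases lie in GENCODE exons. These are counts of letters and say nothing of factor binding.

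Of the 10 genes, 9 were found in at least 1 of the 28 cells, against 48.7% of all symbols. Ptges3 was found in 16 cells (57.1%, exact Clopper-Pearson 95% interval 37.2% to 75.5%), Ptgds in 7 (25%, 10.7% to 44.9%) and Hpgd in 6 (21.4%, 8.30% to 41.0%). Hpgds was found in 3 cells, Ptgs1, Ptges, Ptges2 and Ptger4 in 2 each, Ptgs2 in 1 and Ptgdr in none. The intervals cover counting error only. The interval of Ptges3 overlaps those of Ptgds and Hpgd, and it does not overlap those of the genes found in 3 cells or fewer, the highest of which is 2.27% to 28.2% for Hpgds. All genes were scored in the same 28 cells, so this is a description and no test between genes. For most of these genes 1 cell held most of the summed FPKM. The highest cell held 99.4% for Ptgs2, 95.2% for Ptges2, 91.4% for Hpgds and 88.5% for Hpgd. It held 81.5% for Ptges, 81.1% for Ptgs1 and 59.5% for Ptger4. For Ptgds it held 43.5%, for Ptgdr, found in no cell, 42.4%, and for Ptges3 15.9%. This share was not computed for all symbols, and a gene found in few cells has few cells to spread over. The number of the 10 genes found per cell was 0 in 6 cells, 1 in 8, 2 in 10, 3 in 3 and 4 in cell 5.

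**Figure D1:**
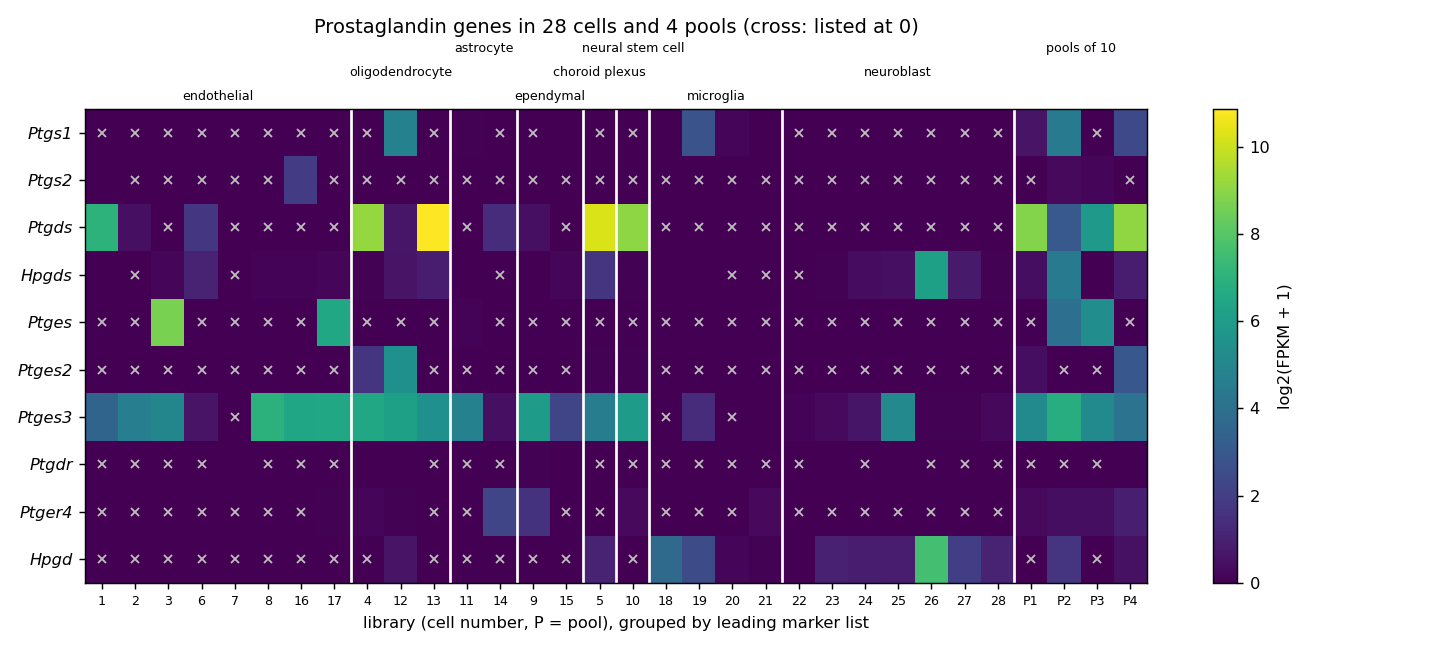
Level of each prostaglandin gene as log2(FPKM + 1) (colour) in 28 cells grouped by leading marker list and in the 4 pools (columns), with a cross where the table lists 0. The row of Ptges3 is filled in 14 of cells 1 to 17, Ptgds is high in 5 cells, and most other rows are bright in 1 or 2 cells.

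The cyclooxygenases were sparse. Ptgs1 (chr2:36230426-36252272), the constitutive form, stood at 26.1 in cell 12, led by oligodendrocyte markers, and at 5.85 in cell 19, led by microglia markers. It was under 1 in the other 26 cells, so without cells 18 to 28 it was found in cell 12 alone. In pools 1 to 4 Ptgs1 stood at 0.501, 20.5, 0 and 4.23, so pool 2, which held 14 of 14 microglia markers, was highest. Ptgs2 (chr1:150100124-150108010), the inducible form, was found in cell 16 alone, an endothelial-led cell, at 2.80, and stood at 0, 0.215, 0.153 and 0 in the pools. Taken as a pair, the cyclooxygenases were found in 3 of 28 cells (10.7%, 2.27% to 28.2%).

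Ptgds was the most abundant of these genes. The gene lies at chr2:25466709-25470046 on the minus strand. It stood at 1870 in cell 13 and 567 in cell 4, both led by oligodendrocyte markers, at 1203 in cell 5, led by choroid plexus markers, at 526 in cell 10, led by neural stem cell markers, and at 130 in cell 1, led by endothelial markers. The other found values were 2.31 in the endothelial-led cell 6 and 1.62 in the astrocyte-led cell 14. No cell fell between 2.31 and 130, so the found cells split into 5 high and 2 low. Cells 12, 2 and 9 were above 0 and under 1, at 0.562, 0.353 and 0.344, and cell 12 is the third cell led by oligodendrocyte markers. The level thus varied within a class: oligodendrocyte-led cells ranged from 0.562 to 1870 and endothelial-led cells from 0 to 130, and these ranges overlap. In pools 1 to 4 Ptgds stood at 465, 7.15, 57.4 and 528. Pools 1 and 4, the high ones, also held the choroid plexus marker Ttr at 33894 and 19813, against 19.5 and 25.1 in pools 2 and 3, and were led by oligodendrocyte markers. Summed over 10 choroid plexus markers, FPKM reached 36241 in pool 1 and 20742 in pool 4, and 39.7 in pool 2 and 104 in pool 3. Summed over 11 oligodendrocyte markers it reached 15253 in pool 1 and 21628 in pool 4, and 7474 in pool 2 and 189 in pool 3. Among meningeal fibroblast markers, Dcn, Lum, Col1a1, Slc6a13 and Foxc1 were highest in pool 2. Igf2 was highest in pool 1, Col1a2 in pool 4 and Aldh1a2 in pool 3. The part of these cell types in the Ptgds levels was not tested. In a library of 10 cells, fewer cells of a type and less RNA per cell cannot be told apart.

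The remaining 18 cells list Ptgds at exactly 0, which can be a failed estimate in place of a measured absence. These are 7 of cells 1 to 17 and all 11 of cells 18 to 28. Exact 0 also occurred for genes that every cell uses: Polr2a, a subunit of RNA polymerase, was listed at 0 in 7 cells, and the mitochondrial gene mt-Co1 in all 32 libraries. Cell 5, with 9 of 10 choroid plexus markers found and Folr1 at 1481, listed Ttr at 0. Of 53 genes found in as many cells as Ptgds and reaching 1000 in 1 cell, the median was listed at 0 in 18 libraries (quartiles 14 and 22), the same number as Ptgds. Of these 53, 8 were listed at 0 in all of cells 18 to 28. The number of zeros of Ptgds equalled the median of genes alike in breadth and height. These genes were matched on the number of cells in which they were found, and their zeros can be failed estimates too. The comparison therefore cannot tell a failed estimate from a measured absence.

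Of the genes within 20 kb of Ptgds, Abca2 (chr2:25428703-25448540), a lipid transporter of myelinating cells, was found in 1 of the 18 libraries that list Ptgds at 0, at 2.73, and in 10 of the 14 others. BC029214 (chr2:25455141-25461094) was found in 3 of those 18, and reached 492 in cell 15 and 478 in cell 17. Clic3 (chr2:25456838-25458776), which lies within BC029214, was found in none of the 18 and 1 of the 14. These high values came from cells 15 and 17 only. In cells 18 to 28, which hold 11 of the 18 zeros of Ptgds, BC029214 and Clic3 were listed at 0 in all 11 cells and Abca2 in 10.

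**Figure D2:**
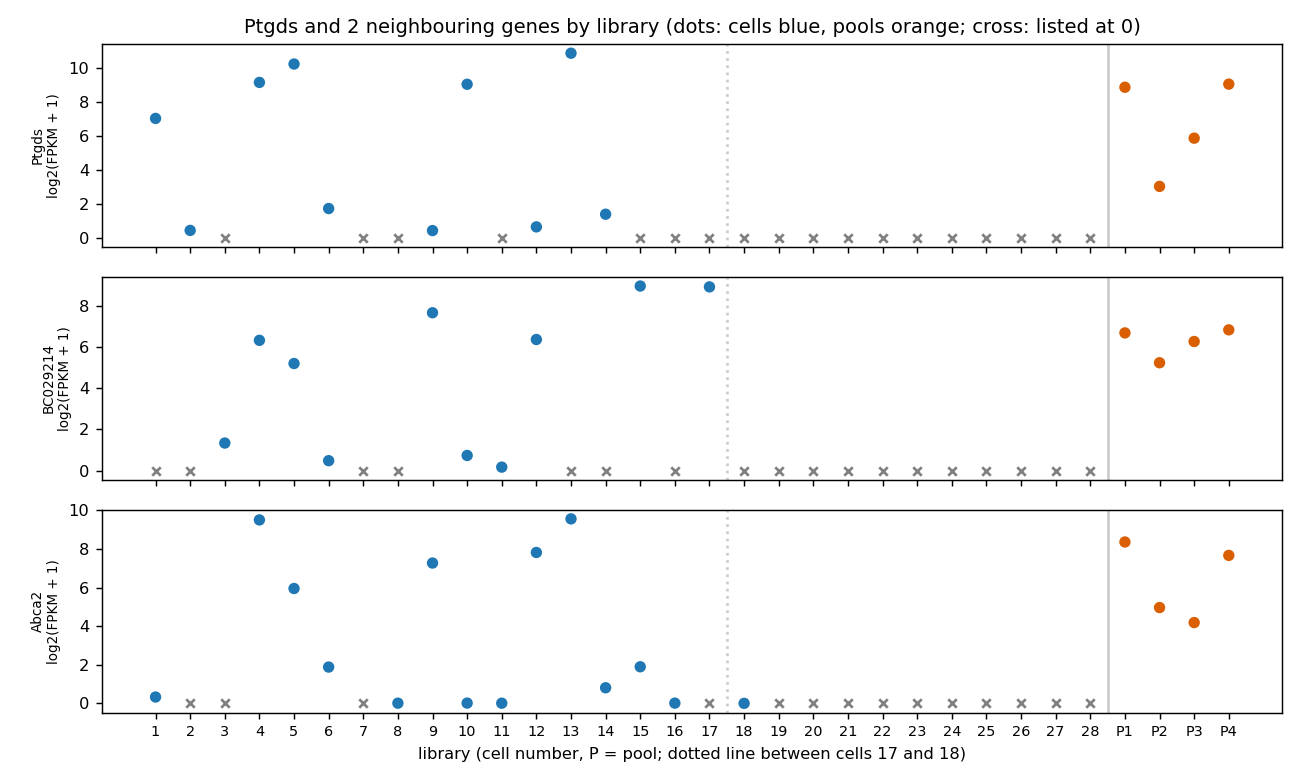
Ptgds, BC029214 and Abca2 as log2(FPKM + 1) (y axes) in each cell and pool (x axis), with crosses where the table lists 0. Ptgds is listed at 0 in all of cells 18 to 28, while BC029214 reaches 492 in cell 15, where Ptgds is also listed at 0.

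Hpgds (chr6:65117293-65144908) was high in a single cell. It stood at 70.4 in cell 26, led by neuroblast markers, and at 2.21 in cell 5 and 1.14 in cell 6. It was above 0 and under 1 in 19 cells and listed at 0 in 6. Putting values below the 2% limit at 0 left it in the same number of cells, and without cells 18 to 28 it was found in 2, at 2.21 at most. No microglia-led cell held it, since cells 18 to 21 reached 0.0179 at most. In the pools Hpgds stood at 0.323, 22.03, 0.0204 and 0.753, and pool 2 was again the highest. Pool 2 was led by endothelial markers and held the summed FPKM of the 14 microglia markers at 2004, against 76.1 to 312 in the other pools. The part of such cells in these values was not tested.

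Hpgd (chr8:56294552-56321046), which breaks prostaglandins down, stood at 196 in the same cell 26. Cell 26 held 11 of 14 neuroblast markers, and 7 of 14 microglia markers, among them Aif1 at 30.3, Trem2 at 21.9 and P2ry12 at 14.2, with Csf1r, Tyrobp and Fcrls listed at 0. All 6 perivascular macrophage markers were listed at 0 there. Microglia markers were not particular to cell 26. They were also the second list in the neuroblast-led cells 22, 23, 24, 25 and 27, with 12, 5, 7, 8 and 4 of 14 found. Hpgd also stood at 12.5 in cell 18 and 4.61 in cell 19, both led by microglia markers, at 3.003 in cell 27, 1.07 in cell 5 and 1.06 in cell 28. It was above 0 in all 11 of cells 18 to 28. When values below that 2% limit (3.93 for cells 23 to 28) were put at 0, Hpgd was found in 4 cells, since cells 27 and 28 dropped out. Without cells 18 to 28 it was found in cell 5 alone. In pools 1 to 4 Hpgd stood at 0, 2.23, 0 and 0.411.

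**Figure D3:**
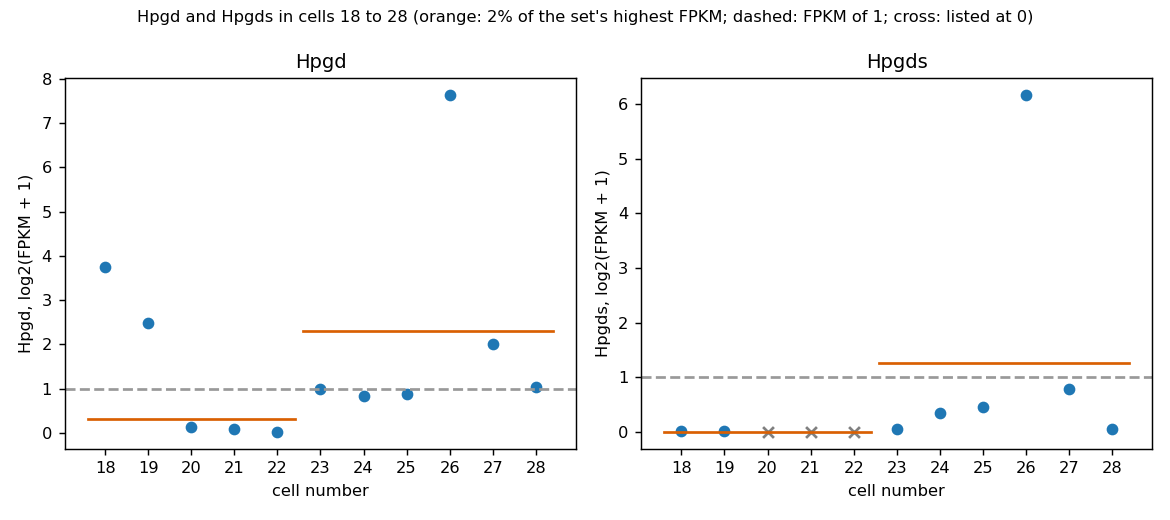
Hpgd (left) and Hpgds (right) as log2(FPKM + 1) in cells 18 to 28, with the level of 2% of the set's highest FPKM in orange and an FPKM of 1 dashed. Cell 26 is highest for both, at 196 and 70.4, and the Hpgd values of cells 27 and 28 lie under the orange line.

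Among the prostaglandin E synthases, Ptges (chr2:30889471-30929863), the inducible microsomal form, stood at 405 in cell 3 and 91.9 in cell 17, and was under 1 in the other 26 cells. Both cells were led by endothelial markers, as in 9.54% of all genes found in exactly 2 cells. Cell 3 was also the endothelial-led cell with 11 of 14 microglia markers, at a summed FPKM of 2598. Ptges was listed at 0 in the other 6 endothelial-led cells. In the pools it stood at 0, 14.7, 39.2 and 0, and the 2 pools that held it, pools 2 and 3, are those led by endothelial markers, with 12 of 12 markers found in each. Pools 1 and 4 held 3 and 5 of 12.

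Ptges2 (chr2:32395896-32402739), a membrane-associated form, stood at 42.6 in cell 12 and 2.07 in cell 4. Both were led by oligodendrocyte markers, as in 5.39% of all genes found in exactly 2 cells. Cell 13, the third cell led by these markers, listed it at 0. In pools 1 to 4 it stood at 0.313, 0, 0 and 6.78, so the pool that held it, pool 4, was one of the 2 led by oligodendrocyte markers. By the share of markers found, oligodendrocyte markers (11 of 11) tied with astrocyte markers (13 of 13) in pool 4, and choroid plexus markers (10 of 10) led pool 1, ahead of oligodendrocyte markers (10 of 11).

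Ptges3 (chr10:128058954-128077272), the cytosolic form, is also known as p23, a co-chaperone of Hsp90. It was found in 14 of cells 1 to 17 (lowest 0, median 30.8, highest 124) and in 2 of cells 18 to 28 (lowest 0, median 0.0761, highest 34.0). The highest was cell 8, led by endothelial markers. It was found in 6 of 8 endothelial-led cells, all 3 oligodendrocyte-led cells (42.8 to 89.2), both ependymal-led cells (3.88 and 62.1), 1 of 2 astrocyte-led cells, cells 5 and 10, 1 of 4 microglia-led cells (cell 19, 1.58) and 1 of 7 neuroblast-led cells (cell 25, 34.0). The class ranges overlap, with 0 to 124 in the endothelial-led cells. In pools 1 to 4 Ptges3 stood at 35.7, 107, 34.3 and 16.8. Of the 6 genes listed as Hsp90 and co-chaperones, Hsp90aa1 and Hsp90ab1 were found in 28 of 28 cells, Fkbp4 in 22, Ahsa1 in 19, and Stip1 and Cdc37 in 16 each. Cells 18 to 28 also held fewer found genes, a median of 3466 against 5932, and the part of this in the lower count of Ptges3 was not tested.

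Ptges3 shares sequence with 2 copies, so its level is uncertain. The transcript of the processed pseudogene Gm9769 (chr6:85843869-85845372) matched Ptges3 over 480 bases with 100% identity, and Gm11893 (chr4:25541791-25542281) over 495 bases with 94.3%. Gm9769 was found in 15 cells. Its FPKM divided by that of Ptges3 ran from 0.442 to 0.718 in the 14 found cells among cells 1 to 17, and stood at 0.656 and 0.595 in pools 1 and 2. In pools 3 and 4 it stood at 0.0307 and 0.0409, and in cell 19 at 0.0142, while cell 25, the other found cell of cells 18 to 28, stood at 0.561. The 2 copies together held 30.7% to 42.9% of the summed FPKM of the 3 genes in those 14 cells, and 2.97% and 5.39% in pools 3 and 4. With the FPKM of the copies added to Ptges3, a choice made after seeing the data, it was found in 17 cells in place of 16. How reads with several matches were counted is not given in the sources used here, and the cause of the split was not tested.

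**Figure D4:**
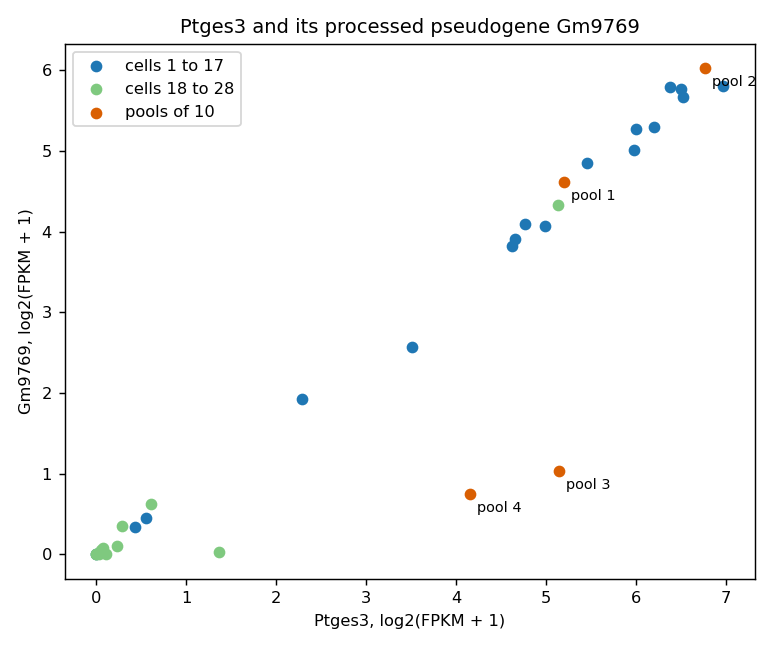
Gm9769 (y axis) against Ptges3 (x axis), both as log2(FPKM + 1), in each cell and pool. Cells 1 to 17 and pools 1 and 2 lie along one line, while pools 3 and 4 lie far under it, at a ratio of 0.0307 and 0.0409.

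Both receptors were low. Ptgdr (chr14:44851235-44859375), a receptor of prostaglandin D, was found in no cell and no pool, and its highest value was 0.0483, in cell 9. A count of 0 of 28 cells allows a share of up to 10.7% by the limit of 3 cells, and up to 12.3% by the exact Clopper-Pearson interval. Ptger4 (chr15:5206661-5244187), a receptor of prostaglandin E, stood at 3.84 in cell 14 and 2.01 in cell 9, led by astrocyte and ependymal markers, and at 0.195, 0.334, 0.342 and 0.879 in the pools. Ptger4 overlaps Ttc33 on the opposite strand over 11676 bases. Ttc33 stood at 517 in cell 14 and 141 in cell 9, so Ptger4 was 0.743% and 1.43% of it there. Over the 10 libraries with both genes above 0 this ran from 0.368% to 1.83%. Cell 10 held Ptger4 at 0.208 with Ttc33 at 0. Cell 25 held Ttc33 at 298 and listed Ptger4 at 0. Without a known strand setting, reads of this pair cannot be told apart.

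Few cells held several steps of the pathway. None of the 7 cells with Ptgds held Ptgs1 or Ptgs2, with an upper limit of 41.0% for the share (exact Clopper-Pearson). This interval holds the 10.7% of all 28 cells that had a cyclooxygenase, so a lower share in the Ptgds cells was not detectable. Ptgds and Hpgds were found together in cells 5 and 6, and Hpgds with Hpgd in cells 5 and 26. Ptgs1 was found with Ptges2 in cell 12. Both Ptges cells and both Ptges2 cells also held Ptges3, and all of them are among cells 1 to 17, of which 14 of 17 held Ptges3. Cell 5 held 4 of these genes, Ptgds, Hpgds, Ptges3 and Hpgd, and pool 2 held 6, the most of any library. Ptgds and Ptges3 were found together in 5 cells, the most of any pair of the 10 genes. They are also the genes found in the most cells, 7 and 16. All 7 Ptgds cells are among cells 1 to 17, of which 14 of 17 held Ptges3, so the pair is no sign of a link.

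Pools and cells were compared by the log2 ratio of their mean FPKM, with a pseudocount of 1 added to both means, which makes the ratios of low genes smaller. Over the 10 genes the median was 0.16, against 0.06 over 19783 symbols found in a library, and the medians of the single pools ran from -0.55 to 0.06. None of the 10 was higher by more than 2-fold with all 4 pools above the mean of the cells, as 1.57% of all symbols were. Hpgd was lower by that rule, as 12.5% of all symbols were, at -2.43 (SD over pools 0.80, n = 4), with means of 0.661 in pools and 7.93 in cells. This rested on cell 26: without it the value was -0.23, and without cells 18 to 28 it turned to 0.61. For the others the pools fell on both sides of the mean of the cells. Ptgds stood at 0.78 (SD 2.85, n = 4), Ptges3 at 0.77 (SD 1.08), Ptgs1 at 1.77 (SD 1.995) and Ptges at -0.37 (SD 2.74), each a spread over pools larger than the value. With the exact zeros of Ptgds taken as missing, its value turned to -0.70. Ptgs1 and Ptges3 rested on pool 2, without which they stood at 0.26 and 0.05, and without cells 18 to 28 Ptgds stood at 0.06 and Ptges3 at 0.14. On means of log values Ptgds stood at 4.88 and Ptges3 at 2.32. Hpgds stood at 0.85 (SD 2.08), and turned to -1.46 without pool 2 and to -2.05 under upper-quartile scaling. Ptges stood above 0 without pool 1 or pool 4 (0.02 for each), on means of log values (1.78), under upper-quartile scaling (0.36) and without cell 3 (1.71). Of the 9 housekeeping genes, Gapdh at -2.28 and Polr2a at -1.03 were also lower by the rule. Polr2a stood at 676 in cell 23 and at 56.1 at most in the other cells. Gapdh was highest in cells 20, 26, 19 and 22 (2495 to 1555), all among cells 18 to 28, and stood at 52.5 to 124 in the pools. The ratios of these genes without such cells were not computed.

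**Figure D5:**
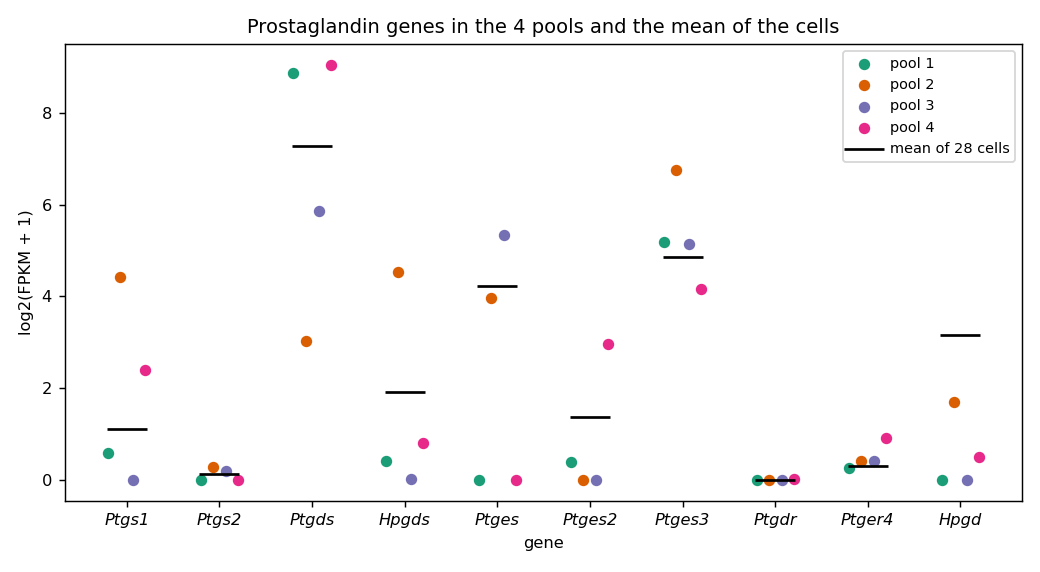
Level of each gene as log2(FPKM + 1) in the 4 pools (points) and in the mean of 28 cells (line). Hpgd alone has all 4 pools under the mean of the cells by more than 2-fold, and Ptgds spreads from 7.15 to 528 FPKM between pools.

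Of 29 other genes of eicosanoid metabolism in the table, 22 were found in a cell and 24 in any library, with a median of 2 cells. Of all symbols, 48.7% were found in a cell and 51.1% in any library. Among the genes that release arachidonic acid or its precursors, all 6 were found in a cell. Mgll, which cleaves monoacylglycerols, was found in 10 cells, with 405 in cell 2 at most. Pla2g4a, the cytosolic phospholipase, stood at 72.8 in cell 3 and 53.1 in cell 13 and was found in 4 cells. Faah, which cleaves fatty acid amides, was found in all 3 oligodendrocyte-led cells (61.3 at most) and in cell 5. Pla2g6, a calcium-independent phospholipase, was found in 6 cells with 435 in cell 24. It was the 1 of the 29 genes called lower in the pools, at -1.45 (means of 6.72 in pools and 20.05 in cells), and this rested on cell 24: without it the value turned to 0.44, and without cells 18 to 28 to 0.36.

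Among the other terminal synthases, Cbr1 was found in 14 cells and Akr1b3 in 13. Ptgis, which makes prostacyclin, stood at 632 in cell 1 and 277 in cell 16, both led by endothelial markers, and at 18.4 in cell 5. Tbxas1, which makes thromboxane, stood at 12.02 in cell 18 and 4.17 in cell 19, both led by microglia markers, and at 17.3 in pool 2. Among cells 1 to 17 Tbxas1 was found in cell 1 alone, at 1.04. Ptgis and Tbxas1 were thus highest in cells of different leading lists.

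Of transporters and breakdown enzymes, Abcc4, which exports prostaglandins, was found in 7 cells, all among the 8 led by endothelial markers (141 in cell 8 at most). Slco2a1, the uptake transporter, stood at 35.8 in cell 3 and at 3.72 and 3.74 in pools 2 and 3, and at 0 in every other library. Ptgr2 was found in 6 cells, with 12.1 at most. Of the 6 other prostanoid receptors in the table, 3 were found in a cell, a share near that of all symbols. Tbxa2r, the thromboxane receptor, was found in 3 cells, all endothelial-led: cell 7 at 173, cell 3 at 136 and cell 2 at 18.1, with 30.3 and 45.3 in pools 2 and 3. How many of all genes found in 3 or 7 cells were found in endothelial-led cells only was not computed, so Tbxa2r and Abcc4 have no such share beside them. Ptger2, Ptger3 and Ptgir, named after their values were seen, were listed at 0 in all 32 libraries. In the lipoxygenase branch Lta4h was found in 7 cells (128 at most) and Ltc4s in 2 (107 in cell 5).

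For the 3 of the 10 genes found in at least 4 cells, the 5 most alike of 12112 genes were ranked by Pearson correlation of log2(FPKM + 1) over 28 cells. These values describe cells that share library and depth, and many of the points are zeros. Ptgds was most alike to Prepl (r = 0.90), Tmem242, Tgif2, Sppl2b and Itfg3, with 4 or 5 cells holding both, and leaving out the cells where Ptgds is listed at 0 gave 0.87 for Prepl over 10 cells. Ptges3 was most alike to Gm9769 (r = 0.99), followed by Pcna-ps2, Aldoa, Pcna and Aldoart1. Gm9769 matches Ptges3 over 480 bases with 100% identity, so its likeness cannot be told apart from shared reads. Pcna-ps2 is also a processed pseudogene. Hpgd was most alike to Cd86 (r = 0.85), Tfap4, Nup205, Slc36a4 and Emp3, with 3 or 4 cells holding both. Over cells 1 to 17 alone the value for Cd86 was -0.09 and for Nup205 0.97. Hpgd was listed at 0 in 15 of these 17 cells and reached 1.07 at most, so both values rest on few cells near the floor.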

How the data were processed

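The authors deposited gene-level FPKM in 1 table. The submitters' processing notes name TopHat 1.41, Cufflinks 2.02 and build mm9. The loci fit GRCm38 instead: of 39011 lines, 37449 have a gene ID known to GENCODE M21, and in 99.7% of them the locus overlaps that gene on GRCm38. Coordinates are therefore those of GRCm38. Not given in the sources used here are the strand setting, the read layout and how reads with several matches were handled. Summing the lines of each symbol gave 38740 symbols, and 27 symbols turned into dates were restored from the gene ID. Work was done in Python 3.11.15 with pandas 2.3.3, numpy 2.4.6 and scipy 1.17.1, after the calculation had been tested on simulated data. Copies were sought among GENCODE M21 transcripts with blastn 2.17.0. Promoter stretches are RefSeq's, and all 10 genes had one. Found means FPKM of at least 1, the pseudocount was 1, and intervals of shares are exact Clopper-Pearson 95% intervals.

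The depth of each library is not stated. From FPKM times length of 2342 single-exon genes, 22 of 32 libraries showed a step of 1 fragment that corresponds to a depth between 6.21 and 20.9 times 1000000 fragments. This rests on an assumed fragment length of 200 bases and is approximate. Named genes were the 10 genes, the genes of the pathway lists found in at least 4 cells or at least 2 pools, the 5 most alike genes and the neighbours of Ptgds. Beside these, genes with 1 pool standing apart are named by that mark, and others listed at 0 are named after their values were seen. The members and lists were chosen with earlier results of these data known. No test between groups was made: the labels tie no cell to an animal, and the pools form a single group. Dixon's critical value was used only to mark pools that stand apart. Alternatives changed the threshold, pseudocount, filter, scaling, summing of lines, leading list and the libraries used.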

Additional observations from a re-analysis of the deposited data

Results flagged for a closer look

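Among the 4 pools, 30 prostaglandin and related genes with a pool at FPKM of at least 1 were checked for 1 pool far from the other 3, by the gap to the nearest pool over the whole range of the 4 pools against Dixon's 95% critical value for 4 samples. In 13 of them (43.3%) 1 pool stood apart, against 23.8% of 17069 symbols with a pool at FPKM of at least 1. The critical value flags about 1 in 20 groups by chance only if values are normally distributed, which was not tested for these FPKM. The 23.8% of all symbols is therefore the rate to compare with. Where the other 3 pools share the same value, the gap equals the range and the gene is always flagged. This was so for Alox5, Alox5ap and Fam213b, with a gap over range of 1. The genes share the same 4 libraries, and the difference between 43.3% and 23.8% was not tested.

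Of the 10 genes of the report, Hpgds stood apart in pool 2 at 22.03 and Ptges2 in pool 4 at 6.78. Pool 2 held 5 of the 13: besides Hpgds, Alox5ap, the 5-lipoxygenase activating protein, stood at 290, Alox5 at 51.1, Mgll at 74.7 and Tbxas1 at 17.3. How many of all symbols with 1 pool apart had it in pool 2 was not computed. Pool 2 also had the most found genes of any library, 12870. Pool 4 stood apart for Fam213b at 24.8, Pla2g5 at 5.12 and Ptgr1 at 4.29. Pool 3 stood apart for Ptgis at 162, Alox12 at 8.54 and Pla2g4b at 6.96, and pool 1 for Cysltr1 at 5.24.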

How the results depend on the processing

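The number of the 10 genes found in a cell was 9 as reported, and 7 at an FPKM of at least 5, its only change among 8 alternatives. The median ratio of pools over cells, 0.16 as reported, was 0.77 over the 7 genes with a mean FPKM of at least 1, 0.78 on means of log values and 1.16 when each gene lost the cell of its highest value. This alternative, the sum of Ptges3 with its copies, the omission of cell 26, those of Pla2g6 and the lists assigned under the 2% limit were chosen after seeing the data. Without each pool in turn it was 0.02 to 0.32. Rescaling libraries to one sum moved the median of all symbols from 0.06 to 0.24, and means of log values moved it to 0.95. Without cells 18 to 28 Hpgd turned from -2.43 to 0.61 and Pla2g6 from -1.45 to 0.36, and without cell 24 Pla2g6 turned to 0.44. The median correlation of the 15 likeness pairs, 0.86, was 0.75 by Spearman. Of the 9 found genes, 3 had their highest value in an endothelial-led cell, and 8 of the 28 cells were endothelial-led. Both other ways of assigning lists changed 1 cell each, cell 22 or cell 21. Neither is the highest cell of any of the 10 genes, so this number could not change. No paired analysis was possible because the numbers shared by cells and pools are only names and no test was made. The approximate depth and the exact zeros limit what a low or listed 0 value can show.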
